A study of Homo sapiens with 18 samples.

Results

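The E2F transcription factors and the retinoblastoma pocket proteins were followed in 2 human cell lines of diffuse large B-cell lymphoma treated with JIB-04, a small-molecule inhibitor of Jumonji-domain histone demethylases. The 10 genes were taken by symbol from the 23686 genes of each table: E2F1, E2F2 and E2F3 (activator E2Fs), E2F4 and E2F5 (canonical repressor E2Fs), E2F7 and E2F8 (atypical repressor E2Fs), and RB1, RBL1 and RBL2 (pocket proteins). All 10 were measured in all 18 libraries and passed the low-count filter in both lines. OCI-Ly1 is a line of the germinal-centre B-cell type and TMD8 a line of the activated B-cell type; each had 3 libraries with 0.01% DMSO as the vehicle, 3 with 150 nM JIB-04 and 3 with 500 nM JIB-04. OCI-Ly1 grew in IMDM and TMD8 in RPMI, so line and medium cannot be told apart. RNA was sequenced in paired ends after removal of ribosomal RNA, and the labels call the 3 libraries of a group technical replicates. The p-values therefore measure the spread between these libraries, which may be technical, and the treatment time is not given in the sources used here.

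E2F proteins bind, with a DP partner, to the promoters of genes needed to enter S phase. In quiescent and early G1 cells, E2F4 and E2F5 sit there with the pocket proteins p107 (RBL1) or p130 (RBL2) and hold these genes down, while pRB (RB1) masks the activation domain of E2F1, E2F2 and E2F3. Cyclin D-CDK4/6 and cyclin E-CDK2 phosphorylate the pocket proteins and free the activators, and E2F7 and E2F8, which need neither a DP partner nor a pocket protein, then shut the same promoters down late in S phase. E2F1, E2F2, E2F3, E2F7, E2F8 and RBL1 are themselves E2F target genes, so the family is wired in feedback loops. With the MuvB proteins, p107 and p130 also form the DREAM complex, which represses late cell-cycle genes through a promoter element named CHR. In diffuse large B-cell lymphoma, loss of control over this switch is a common route to rapid division.

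The promoter windows of the family differ in whether they hold E2F-like sequence, and those of 5 members are shown. Whether these letters bear on the changes described below was not tested. RefSeq (GRCh38.p14) entries matched 8 of the 10 members by symbol, all but E2F5 and E2F8. The window was the 250 bases before the annotated start, and the letters searched on both strands were TTTCCCGC, TTTCCCGG, TTTCGCGC, TTTCGCGG, TTTGCCGC, TTTGCCGG, TTTGGCGC and TTTGGCGG. Matched letters are in capitals below, each sequence running 5′ to 3′ on the strand of its gene: E2F1 at chr20:33686386-33686635 (minus strand), E2F2 at chr1:23531234-23531483 (minus strand), the first of the E2F3 starts at chr6:20401629-20401878 (plus strand), RBL1 at chr20:37095998-37096247 (minus strand) and E2F7 at chr12:77065570-77065819 (minus strand).
E2F1: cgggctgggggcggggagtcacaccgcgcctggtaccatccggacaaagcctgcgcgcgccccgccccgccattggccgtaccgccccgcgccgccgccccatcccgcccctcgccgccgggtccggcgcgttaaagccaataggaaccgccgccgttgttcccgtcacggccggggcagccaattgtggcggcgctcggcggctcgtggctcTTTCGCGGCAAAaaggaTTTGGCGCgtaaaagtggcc
E2F2: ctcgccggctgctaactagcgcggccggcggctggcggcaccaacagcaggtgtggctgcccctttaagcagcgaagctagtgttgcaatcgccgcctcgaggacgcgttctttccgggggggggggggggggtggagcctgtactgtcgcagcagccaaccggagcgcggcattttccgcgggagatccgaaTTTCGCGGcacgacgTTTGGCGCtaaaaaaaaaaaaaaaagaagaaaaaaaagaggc
E2F3: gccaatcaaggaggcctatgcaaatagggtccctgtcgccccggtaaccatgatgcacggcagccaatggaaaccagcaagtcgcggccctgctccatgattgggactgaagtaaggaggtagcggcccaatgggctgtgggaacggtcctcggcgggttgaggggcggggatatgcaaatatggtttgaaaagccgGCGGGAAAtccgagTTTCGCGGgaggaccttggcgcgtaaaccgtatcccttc
RBL1: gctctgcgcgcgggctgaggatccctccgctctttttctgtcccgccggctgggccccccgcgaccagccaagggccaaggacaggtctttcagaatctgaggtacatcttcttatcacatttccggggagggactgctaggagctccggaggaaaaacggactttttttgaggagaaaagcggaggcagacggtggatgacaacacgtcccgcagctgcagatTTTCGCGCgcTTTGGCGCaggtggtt
E2F7: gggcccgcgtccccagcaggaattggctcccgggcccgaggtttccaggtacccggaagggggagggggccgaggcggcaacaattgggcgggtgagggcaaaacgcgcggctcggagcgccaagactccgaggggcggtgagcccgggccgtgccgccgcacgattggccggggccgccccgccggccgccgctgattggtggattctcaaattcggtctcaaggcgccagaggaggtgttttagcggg
The E2F1 window held 3 matches, of which TTTCGCGG and, on the opposite strand, TTTGCCGC overlap, and TTTGGCGC lies 20 bases before the start. E2F2, E2F3 and RBL1 held 2 each, all within 57 bases of the start. The windows of E2F4, E2F7, RB1 and RBL2 held none, and neither did the second E2F3 start. For RB1 the RefSeq entry lies 172724 bases inside the gene as GENCODE v29 annotates it, so that window is not the main RB1 promoter. The 2 RBL2 windows end 494 and 1642 bases inside the GENCODE gene, so they are not the stretch just before its annotated start. Among all 35116 RefSeq windows 5.23% held a match, against 18 of 34 (52.9%) of the G1/S target genes listed further on and 1 of 26 (3.85%) of the late cell-cycle genes. The CHR letters TTTGAA were found for 16 of 26 (61.5%) late cell-cycle genes and in 13.3% of all windows. A listed gene counted if any of its windows held a match, so the shares of genes and of windows are unlike measures. The lists were chosen as known E2F target genes and as CHR genes, so high shares of those letters are partly built in. A match describes letters only.

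Library totals lay between 17579732 and 32651115 estimated counts in OCI-Ly1 and between 9550092 and 20509500 in TMD8, and the 10 genes together took 0.0860% to 0.0951% of a library. All 7 B-cell markers reached 1 TPM (a level corrected for library size and transcript length) in every group. Of the 4 germinal-centre markers, BCL6 and MME had 79.4 ± 3.2 and 84.6 ± 3.6 TPM (SD, n = 3) in OCI-Ly1 with DMSO and 9.48 ± 1.52 and 0.015 ± 0.013 TPM in TMD8, where the activated-type marker IRF4 had 365 ± 52 TPM. The other two went against the line labels: LMO2 had 0.011 ± 0.020 TPM in OCI-Ly1 and 25.1 ± 2.7 TPM in TMD8, and SERPINA9 0.10 ± 0.11 and 9.26 ± 1.2 TPM. The 4 myeloid markers summed to at most 1.53 TPM. The 4 T-cell markers summed to 26.7 to 28.9 TPM in OCI-Ly1 with DMSO and to 11.9 to 13.8 TPM at 500 nM, nearly all from CD3D and CD3G, with CD3E at 0.39 ± 0.09 and 0.44 ± 0.06 TPM. Their part in the results was not tested. Levels are given below as CPM (counts scaled to library size, not to length) with all 18 libraries scaled together by TMM, because the TPM scale was compressed in TMD8: MIR3687 took 16.1% to 17.3% of all TPM there with DMSO and 19.1% to 24.3% at 500 nM, against at most 0.674% in OCI-Ly1.

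With the vehicle alone the lines differed most in RB1, E2F5 and E2F2. A member was called at an adjusted p under 0.05 in edgeR's quasi-likelihood test, adjusted over all genes tested. Of the 10 genes, 3 were higher in OCI-Ly1 with DMSO and 3 were higher in TMD8 with DMSO, where 37.8% and 39% of all genes tested were. In OCI-Ly1, RB1 stood at 17.4, 17.5 and 20.2 CPM, from 310 to 523 counts a library. In TMD8 the libraries read 451, 380 and 384 CPM, a 22.0-fold higher level (log2 difference −4.46 ± 0.08 SE, edgeR adjusted p = 4.33e-26). The pocket protein that gives the family its name was thus the most abundant of the 10 genes by CPM in TMD8 and the least abundant in OCI-Ly1.

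The opposite held for E2F5, a p130-dependent repressor, at 141, 149 and 156 CPM in OCI-Ly1 against 27.5, 23.5 and 26.5 CPM in TMD8 (5.76-fold higher in OCI-Ly1, edgeR adjusted p = 1.36e-22). E2F2, an activator, was 3.89-fold higher in OCI-Ly1 (147 ± 11.5 against 37.6 ± 1.4 CPM, SD, n = 3, edgeR adjusted p = 7.82e-21) and E2F1 2.06-fold higher (132 ± 6.6 against 64.0 ± 3.9 CPM, edgeR adjusted p = 6.27e-15). E2F3, the third activator, went the other way: 40.9 ± 1.2 CPM in OCI-Ly1 and 75.2 ± 3.3 CPM in TMD8, a log2 difference of −0.88 ± 0.06 SE (edgeR adjusted p = 3.14e-14). E2F8 was 1.27-fold higher in TMD8 (edgeR adjusted p = 9.54e-06). On the TPM scale, where 79.5% of the genes called were higher in OCI-Ly1 (49.2% with TMM) and the median of all genes was 0.61 higher in OCI-Ly1, E2F3 stood at 0.08 and E2F8 at 0.60, so the direction of these 2 rests on the scaling. With TMM scaling the 95% intervals of the line difference for the members not called were narrow. They were −0.20 to 0.05 on the log2 scale for E2F4, −0.34 to −0.01 for E2F7, −0.05 to 0.16 for RBL1 and −0.17 to 0.04 for RBL2. The E2F7 interval lay below 0, though its edgeR adjusted p was 0.0544. Over the alternative settings the difference ran from −0.16 to 0.89 for E2F4 and from −0.26 to 0.79 for E2F7, so these 2 also rest on the scaling. On the TPM scale RBL1 and RBL2 were higher in OCI-Ly1 by 1.02 and 0.87 (limma adjusted p = 4.42e-09 and 2.50e-08), and RBL1 also when scaled by library size only (0.20, edgeR adjusted p = 0.00110).

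**Figure D1:**
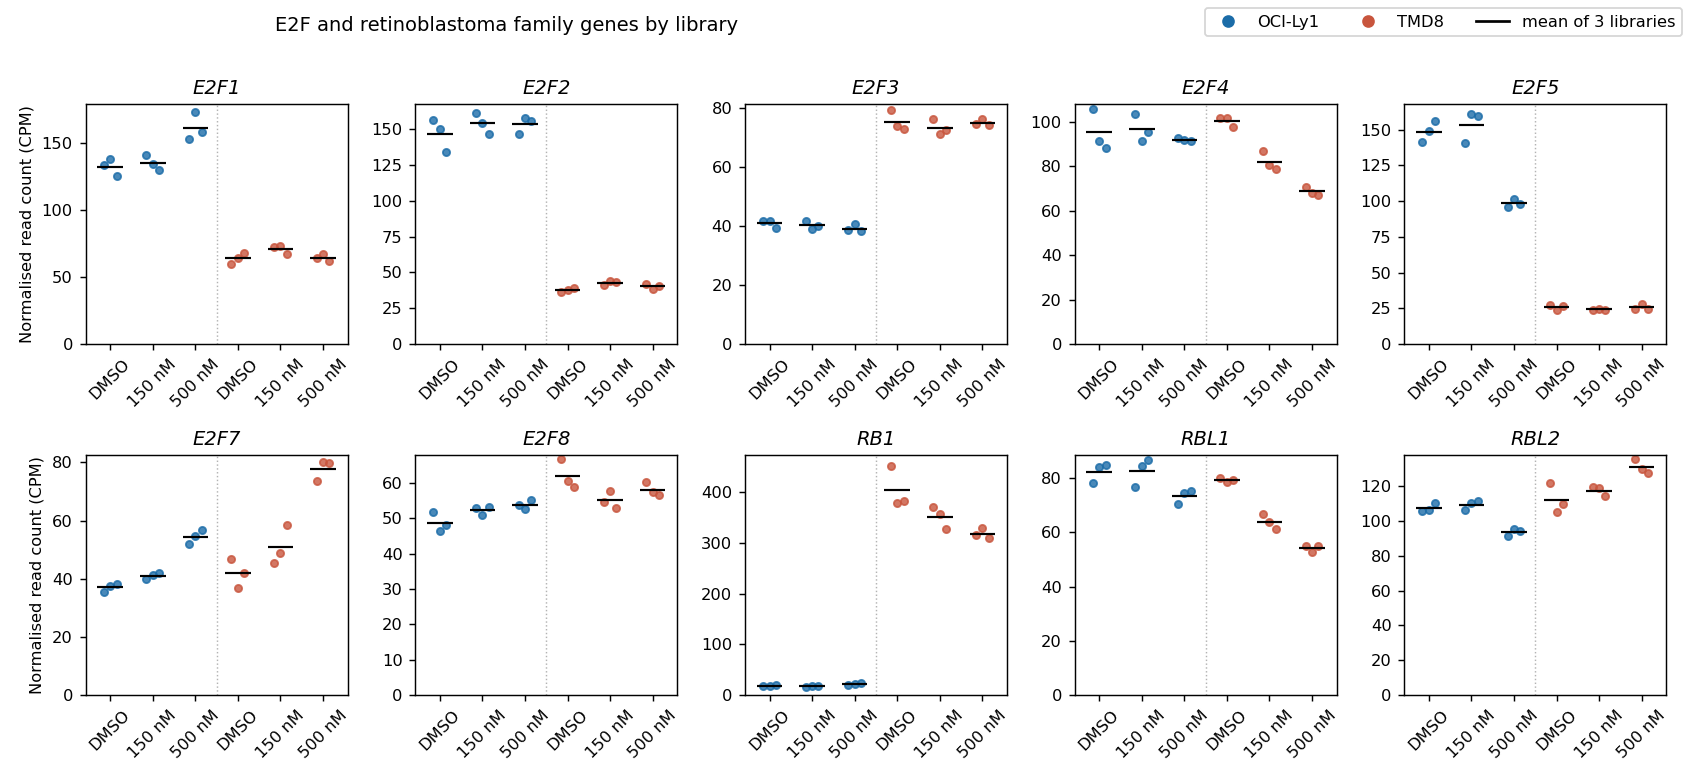
Normalised read count (CPM, linear axis from 0) of each of the 10 family genes in the 18 libraries; points are libraries, bars are group means and the dotted line parts OCI-Ly1 (left) from TMD8 (right). RB1 lies at 15.5 to 23.0 CPM in the 9 OCI-Ly1 libraries and at 310 to 451 CPM in the 9 TMD8 libraries.

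Per transcript length, the make-up of the family was different in the 2 lines. In OCI-Ly1 with DMSO, E2F5 made up 32.6% ± 1.8 (SD, n = 3) of the TPM of the 10 genes, E2F1 16.9% ± 0.8, E2F4 15.9% ± 1.5 and RB1 1.29% ± 0.12. In TMD8 with DMSO, RB1 made up 32.0% ± 1.6, E2F4 19.0% ± 0.9, E2F1 9.22% ± 0.95 and E2F5 6.08% ± 0.33. E2F2 was 9.44% ± 0.68 of the family in OCI-Ly1 and 2.73% ± 0.22 in TMD8, and the atypical pair E2F7 and E2F8 were the smallest E2F classes in both by summed TPM (26.8 ± 1.3 TPM in OCI-Ly1 and 16.8 ± 2.6 TPM in TMD8). At 500 nM the share of E2F5 in OCI-Ly1 was 23.0% ± 0.06 and that of E2F1 22.3% ± 0.9, so that the lead of E2F5 over E2F1 had nearly closed. In TMD8 at 500 nM, E2F4 held 14.6% ± 0.3, E2F7 5.75% ± 0.31 against 2.73% ± 0.22 with DMSO, and RB1 28.5% ± 0.4.

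**Figure D2:**
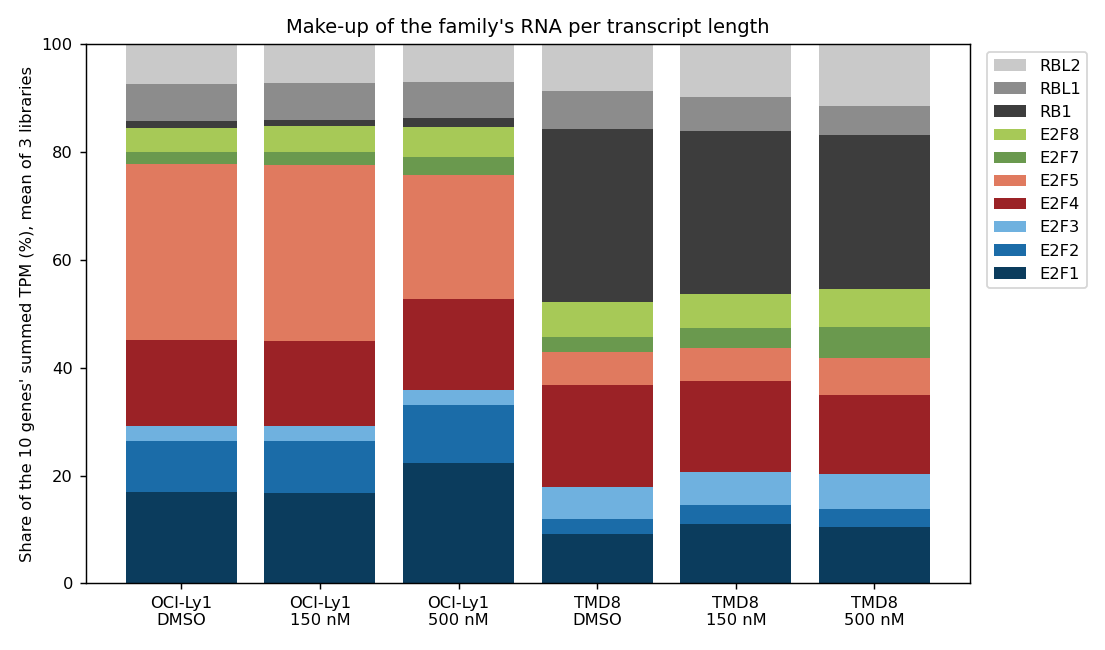
Share of each gene in the summed TPM of the 10 family genes (percent, mean of 3 libraries per group), stacked by group. E2F5 takes 32.6% of the OCI-Ly1 DMSO bar and RB1 32.0% of the TMD8 DMSO bar.

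JIB-04 at 150 nM left all 10 members uncalled in OCI-Ly1, where 0.889% of all genes were called (139 of 15638, edgeR); the largest value was that of E2F7, 0.14 ± 0.06 SE on the log2 scale (edgeR adjusted p = 0.465). At 500 nM 3 members were higher and 3 lower in OCI-Ly1, with 27.7% of all genes higher and 25.9% lower. In TMD8 2 members were higher and 4 lower at 150 nM, with 19.2% of all genes higher and 25% lower, and 2 were higher and 3 lower at 500 nM, with 29.9% of all genes higher and 30.7% lower. Over all genes, 51.6% of those called in OCI-Ly1 at 500 nM were higher with TMM scaling, 64.0% with library size alone, 71.9% on log2 TPM and 32.3% on median-centred log2 TPM. In TMD8 at 500 nM these shares were 49.3%, 59.4%, 18.8% and 48.3%, with the median of all genes at 0.04, 0.13, −0.22 and 0.03. In TMD8 at 150 nM they were 43.5%, 60.5%, 21.3% and 36.0%. On log2 TPM, E2F1, E2F3 and E2F5 stood at −0.31, −0.34 and −0.31 in TMD8 at 500 nM, near that median of all genes, whereas they stood at 0.04, 0.03 and 0.03 with TMM scaling. In TMD8 at 150 nM the 4 of 10 members called lower were a larger share than the 25% of all genes. In the other comparisons with DMSO the share of members called was near that of all genes. The members are described by which of them moved and how far. In bulk RNA, fewer cells of a type or cell-cycle phase and less RNA per cell cannot be told apart.

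**Figure D3:**
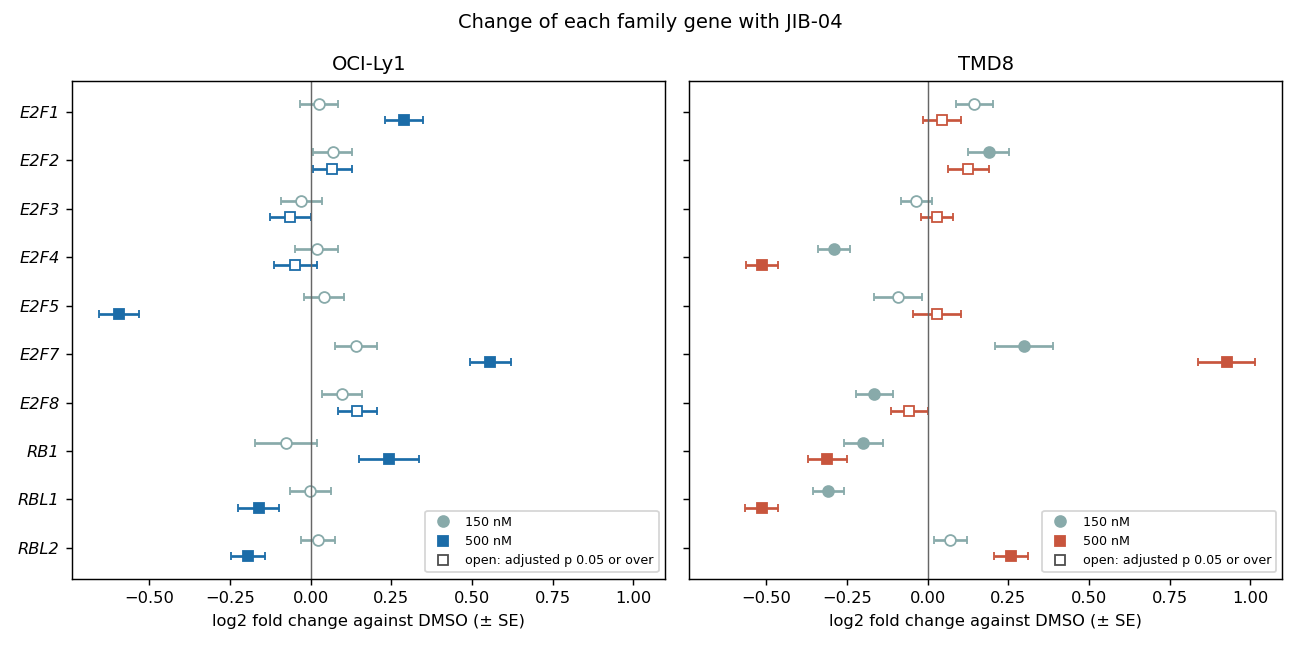
Log2 fold change against DMSO (± SE) of the 10 family genes at 150 nM and 500 nM JIB-04, in OCI-Ly1 (left) and TMD8 (right); filled points passed the adjusted p threshold of 0.05. E2F7 is the rightmost gene at 500 nM in both panels, at 0.56 in OCI-Ly1 and 0.93 in TMD8.

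Among the activators, E2F1 rose in OCI-Ly1 alone of the 2 lines at the higher dose. In OCI-Ly1 the libraries read 134, 138 and 125 CPM with DMSO, 141, 134 and 130 CPM at 150 nM and 153, 173 and 158 CPM at 500 nM, with no overlap between the highest dose and DMSO. The change at 500 nM was 0.29 ± 0.06 SE on the log2 scale (edgeR adjusted p = 5.18e-04). In TMD8 the E2F1 libraries read 60.0, 64.1 and 67.8 CPM with DMSO, 72.0, 72.9 and 67.3 CPM at 150 nM and 64.5, 67.3 and 61.6 CPM at 500 nM. At 150 nM the log2 change of 0.14 ± 0.06 SE in TMD8 missed the threshold (edgeR adjusted p = 0.0506). It passed with library size only (0.23, edgeR adjusted p = 0.00471), with no low-count filter (0.0370) and with only those 2 groups fitted (0.0404). It also passed without DMSO library 3 (0.0216) or 150 nM library 3 (0.0188). At 500 nM the TMD8 log2 difference from DMSO was 0.04 ± 0.06 SE (edgeR adjusted p = 0.539). The difference between the lines in the change at 500 nM was itself called (0.27 ± 0.09 SE, edgeR adjusted p = 0.0114).

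E2F2 was called with TMM scaling only in TMD8 at 150 nM, where it rose slightly. Its TMD8 libraries read 36.2, 37.6 and 39.1 CPM with DMSO and 40.9, 43.9 and 43.6 CPM at 150 nM, a log2 change of 0.19 ± 0.06 SE (edgeR adjusted p = 0.0205). At 500 nM they read 42.0, 38.3 and 40.3 CPM, a log2 change of 0.13 ± 0.06 SE (edgeR adjusted p = 0.0992). The call at 150 nM ended when DMSO library 1 (edgeR adjusted p = 0.0553) or 150 nM library 2 (edgeR adjusted p = 0.0730) was left out, on log2(TPM + 1) (0.03, limma adjusted p = 0.830) and when that was centred on each library's median (0.12, limma adjusted p = 0.101). Scaled by library size only, E2F2 was instead also called higher at 500 nM, in TMD8 (0.22, edgeR adjusted p = 0.00958) and in OCI-Ly1 (0.15, edgeR adjusted p = 0.0437), in the latter on log2(TPM + 1) too (0.20, limma adjusted p = 0.0224). In OCI-Ly1 E2F2 stood at 147 ± 11.5, 154 ± 7.2 and 153 ± 5.9 CPM from DMSO to 500 nM, with 95% limits of −0.05 to 0.19 for the log2 change at 500 nM. E2F3, which codes for the activator most tied to normal proliferation, was the steadiest activator with TMM scaling. Its group means lay between 39.1 and 40.9 CPM in OCI-Ly1 and between 73.2 and 75.2 CPM in TMD8. Its log2 change at 500 nM was −0.06 ± 0.06 SE in OCI-Ly1 and 0.03 ± 0.05 SE in TMD8. On median-centred log2(TPM + 1) E2F3 was called lower in OCI-Ly1 at 500 nM (−0.19, limma adjusted p = 0.0105). Over the alternative settings the TMD8 change at 500 nM ran from −0.37 to 0.12 for E2F3. For E2F1 it ran from −0.33 to 0.14 and for E2F2 from −0.24 to 0.22, so the steadiness of E2F3 rests on the scaling.

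The canonical repressors fell in different lines. E2F5 fell in OCI-Ly1, from 141, 149 and 156 CPM with DMSO and 141, 161 and 159 CPM at 150 nM to 95.9, 101 and 98.2 CPM at 500 nM. The groups at 500 nM and DMSO did not overlap, and E2F5 decreased by 33.7%, a log2 change of −0.59 ± 0.06 SE (edgeR adjusted p = 3.86e-07). In TMD8, where its level was low to begin with, E2F5 read 24.8, 27.7 and 24.6 CPM at 500 nM against 27.5, 23.5 and 26.5 CPM with DMSO, a log2 difference of 0.03 ± 0.08 SE (edgeR adjusted p = 0.760). E2F4, the most abundant E2F in resting cells and the usual partner of p107 and p130, fell in TMD8: 102, 102 and 97.9 CPM with DMSO, 87.0, 80.6 and 78.7 CPM at 150 nM, and 70.7, 68.2 and 67.3 CPM at 500 nM. No TMD8 group overlapped another, and the log2 changes were −0.29 ± 0.05 SE at 150 nM (edgeR adjusted p = 1.07e-04) and −0.51 ± 0.05 SE at 500 nM (edgeR adjusted p = 8.12e-08). In OCI-Ly1 E2F4 read 106, 91.5 and 88.4 CPM with DMSO and 93.0, 91.8 and 91.5 CPM at 500 nM, with 95% limits of −0.18 to 0.08 for the log2 change. The line difference in the change at 500 nM was 0.50 ± 0.09 SE for E2F4 (edgeR adjusted p = 5.97e-05) and −0.59 ± 0.10 SE for E2F5 (edgeR adjusted p = 2.40e-05), in opposite directions. The E2F5 call was lost on log2(TPM + 1) (−0.16, limma adjusted p = 0.314).

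E2F7, an atypical repressor that is also induced by p53, was the only member that rose at 500 nM in both lines. Its OCI-Ly1 libraries read 35.6, 37.4 and 38.2 CPM with DMSO, 39.8, 41.2 and 42.0 CPM at 150 nM and 51.9, 54.5 and 56.8 CPM at 500 nM, 3 groups without overlap. The log2 change at 500 nM was 0.56 ± 0.06 SE, or 1.47-fold (edgeR adjusted p = 1.01e-06). In TMD8 E2F7 read 46.9, 36.8 and 42.0 CPM with DMSO, 45.5, 49.0 and 58.3 CPM at 150 nM and 73.5, 80.2 and 79.6 CPM at 500 nM. The TMD8 groups at DMSO and 150 nM overlapped (0.30 ± 0.09 SE, edgeR adjusted p = 0.0123), and that call was lost without the second DMSO library (edgeR adjusted p = 0.0703) or the third 150 nM library (edgeR adjusted p = 0.0738), on log2(TPM + 1) (0.11, limma adjusted p = 0.547) and when that was median-centred (0.20, limma adjusted p = 0.0829). At 500 nM the groups did not overlap and E2F7 was 1.90-fold higher (0.93 ± 0.09 SE, edgeR adjusted p = 6.84e-08), a rank of 1844 by size among 15363 genes tested. The rise was larger in TMD8 than in OCI-Ly1 (line difference −0.34 ± 0.11 SE, edgeR adjusted p = 0.0152).

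Unlike E2F7, the other atypical repressor E2F8 was not called at 500 nM in either line in the main fits. At that dose E2F8 moved in the same direction as E2F7 in OCI-Ly1 but not in TMD8. In OCI-Ly1 it read 51.8, 46.3 and 48.1 CPM with DMSO and 53.7, 52.5 and 55.3 CPM at 500 nM, groups that did not overlap. The log2 change of 0.14 ± 0.06 SE missed the threshold (edgeR adjusted p = 0.0514). It passed when counts were scaled by library size only (0.23, edgeR adjusted p = 0.00428), on log2(TPM + 1) (0.29, limma adjusted p = 0.00447), with only those 2 groups fitted (edgeR adjusted p = 0.0492) and with a replicate block (edgeR adjusted p = 0.0410). In TMD8 it read 66.7, 60.5 and 58.8 CPM with DMSO, 54.7, 57.8 and 53.0 CPM at 150 nM, and 60.2, 57.4 and 56.6 CPM at 500 nM. Its log2 change there was −0.16 ± 0.06 SE at the lower dose (edgeR adjusted p = 0.0261) and −0.06 ± 0.06 SE at the higher dose (edgeR adjusted p = 0.408). The call at 150 nM ended when DMSO library 1 (edgeR adjusted p = 0.0761), 150 nM library 1 (0.0555) or 150 nM library 3 (0.192) was left out, and it was lost in DESeq2 (adjusted p = 0.0687), with counts scaled by library size only (−0.08, edgeR adjusted p = 0.223), with no low-count filter (0.0561) and with only those 2 groups fitted (0.118). At 500 nM E2F8 was called lower in TMD8 on log2(TPM + 1) (−0.38, limma adjusted p = 0.00331).

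All 3 pocket protein genes were called in both lines at 500 nM, and RB1 and RBL2 were called in opposite directions. RB1 in OCI-Ly1 read 17.4, 17.5 and 20.2 CPM with DMSO, 15.5, 18.4 and 18.7 CPM at 150 nM and 20.5, 21.7 and 23.0 CPM at 500 nM. The log2 change at 500 nM was 0.24 ± 0.09 SE (edgeR adjusted p = 0.0363). Leaving out 1 library ended that call in 4 of 6 cases: DMSO library 1 (edgeR adjusted p = 0.147), DMSO library 2 (0.116), 500 nM library 2 (0.0809) and 500 nM library 3 (0.130). It was also lost on median-centred log2 TPM (0.10, limma adjusted p = 0.351). In TMD8 RB1 read 451, 380 and 384 CPM with DMSO, 371, 357 and 327 CPM at 150 nM, and 316, 330 and 310 CPM at 500 nM, each dose below all DMSO libraries. It fell by 0.20 ± 0.06 SE on the log2 scale at 150 nM (edgeR adjusted p = 0.0119) and by 0.31 ± 0.06 SE at 500 nM (edgeR adjusted p = 2.32e-04). Even after that fall, the lowest TMD8 library stood at 310 CPM and the highest OCI-Ly1 library at 23.0 CPM. The fall at 150 nM was lost without the third 150 nM library (edgeR adjusted p = 0.120), with counts scaled by library size only (−0.11, edgeR adjusted p = 0.0774) and with only those 2 groups fitted (edgeR adjusted p = 0.0675).

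RBL1, coding for p107, fell in both lines, by 30.0% in TMD8 and by 10.6% in OCI-Ly1 at 500 nM. In TMD8 its libraries read 80.0, 78.5 and 79.3 CPM with DMSO, 66.6, 63.9 and 61.3 CPM at 150 nM and 55.0, 52.8 and 55.0 CPM at 500 nM, 3 groups without overlap. The log2 changes there were −0.31 ± 0.05 SE (edgeR adjusted p = 6.68e-05) and −0.51 ± 0.05 SE (edgeR adjusted p = 9.29e-08). In OCI-Ly1 RBL1 read 78.1, 83.9 and 85.0 CPM with DMSO and 70.6, 74.6 and 75.4 CPM at 500 nM, a log2 change of −0.16 ± 0.06 SE (edgeR adjusted p = 0.0369). The OCI-Ly1 call was lost when any of 5 of the 6 libraries compared was left out (the second and the third DMSO library and each 500 nM library, edgeR adjusted p from 0.0544 to 0.137) when counts were scaled by library size only (−0.07, edgeR adjusted p = 0.320) and on the TPM scale, where the log2 change was 0.0011. The fall was larger in TMD8 (line difference 0.38 ± 0.08 SE, edgeR adjusted p = 3.52e-04).

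RBL2, coding for p130, the pocket protein of resting cells, rose in TMD8 and fell in OCI-Ly1. TMD8 libraries read 122, 105 and 110 CPM with DMSO, 119, 119 and 114 CPM at 150 nM and 135, 130 and 127 CPM at 500 nM. The log2 change at 500 nM was 0.26 ± 0.05 SE (edgeR adjusted p = 3.07e-04), and those 3 libraries lay above all DMSO libraries. On the TPM scale, where the median of all TMD8 genes was at −0.22, RBL2 stood at −0.11, so its direction in TMD8 rests on the scaling. OCI-Ly1 libraries read 106, 106 and 110 CPM with DMSO, 106, 110 and 112 CPM at 150 nM and 91.6, 95.5 and 94.1 CPM at 500 nM. There RBL2 fell by 0.19 ± 0.05 SE on the log2 scale (edgeR adjusted p = 0.00465), a call that was lost when counts were scaled by library size only (−0.11, edgeR adjusted p = 0.0868) and on the TPM scale (−0.05, limma adjusted p = 0.497). With TMM scaling, p130 transcript in TMD8 thus rose beside falls in p107, pRB and E2F4 transcripts.

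Between the doses themselves, 6 members differed in OCI-Ly1 (46.2% of all genes called, edgeR) and 4 in TMD8 (28.7% called). In OCI-Ly1 these were E2F1, E2F5, E2F7, RB1, RBL1 and RBL2, with E2F5 at −0.64 ± 0.06 SE and E2F7 at 0.41 ± 0.06 SE between 150 nM and 500 nM. In TMD8 E2F4 (−0.22 ± 0.05 SE) and RBL1 (−0.21 ± 0.05 SE) went on falling, E2F7 rose (0.63 ± 0.09 SE) and RBL2 rose (0.19 ± 0.05 SE). RB1 stood at −0.11 ± 0.06 SE between the TMD8 doses (edgeR adjusted p = 0.192). In order of group level by CPM, E2F7 was highest in TMD8 at 500 nM (77.8 CPM), then in OCI-Ly1 at 500 nM (54.4), TMD8 at 150 nM (50.9), TMD8 with DMSO (41.9), OCI-Ly1 at 150 nM (41.0) and OCI-Ly1 with DMSO (37.0). Only the first and the last steps of that order were free of overlap between libraries. E2F8 ran from 62.0 CPM in TMD8 with DMSO to 48.7 CPM in OCI-Ly1 with DMSO, and every neighbouring pair of groups overlapped.

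The activator and repressor classes were set against each other within each library, as the mean log2 CPM of E2F1, E2F2 and E2F3 minus that of the repressors. It is a description of 3 libraries a group, with no test. Against the canonical repressors E2F4 and E2F5, the difference in OCI-Ly1 was −0.36 ± 0.07 (SD, n = 3) with DMSO, then −0.37 ± 0.07 at 150 nM and 0.05 ± 0.04 at 500 nM. For TMD8 the values in the same order were 0.15 ± 0.07, 0.44 ± 0.03 and 0.46 ± 0.04. CPM is not corrected for transcript length, so the change of the measure can be read but not its sign. With log2(TPM + 1) in place of log2 CPM, every group mean was negative. OCI-Ly1 went from −1.52 ± 0.06 with DMSO through −1.53 ± 0.07 at 150 nM to −1.11 ± 0.04 at 500 nM. TMD8 likewise moved from −0.94 ± 0.07 through −0.67 ± 0.03 to −0.64 ± 0.04. The balance thus lay further to the activators at 500 nM than with DMSO in every library of both lines, through the fall of E2F5 and the rise of E2F1 in OCI-Ly1 and through the fall of E2F4 in TMD8.

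Against the atypical repressors E2F7 and E2F8 the same measure moved the other way at 500 nM in both lines, but not at 150 nM in TMD8. From DMSO through 150 nM to 500 nM OCI-Ly1 read 1.12 ± 0.09, 1.02 ± 0.07 and 0.87 ± 0.07. TMD8 read 0.15 ± 0.14, 0.20 ± 0.09 and −0.21 ± 0.03. With all 4 repressors in the measure, OCI-Ly1 read 0.38 ± 0.08 with DMSO and 0.46 ± 0.06 at 500 nM, and TMD8 0.15 ± 0.11 and 0.12 ± 0.03. The direction of an activator-to-repressor ratio in these cells therefore depended on which repressors were counted.

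**Figure D4:**
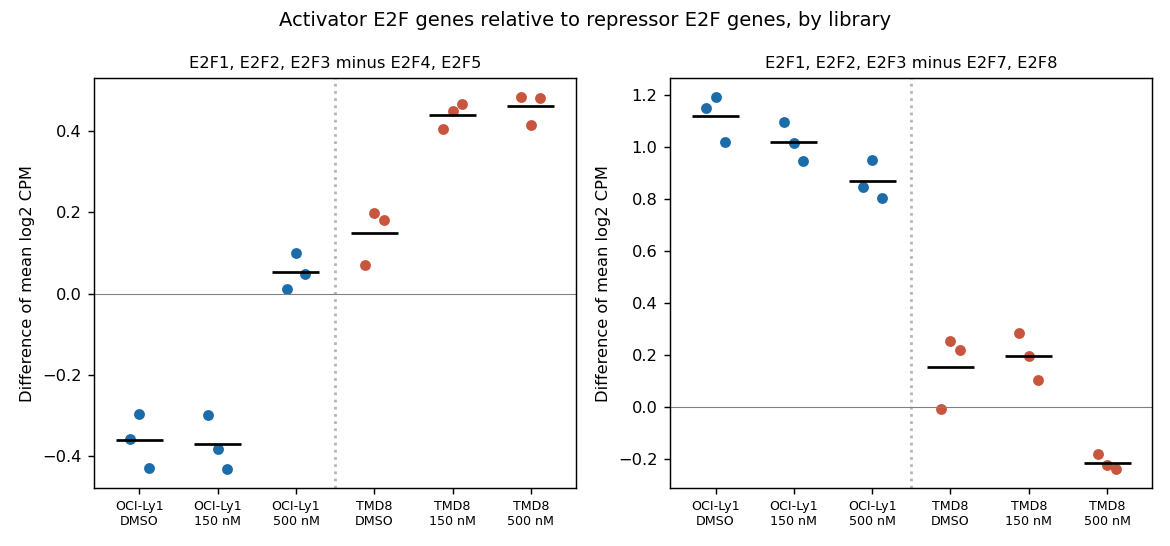
Mean log2 CPM of E2F1, E2F2 and E2F3 minus that of E2F4 and E2F5 (one panel) or of E2F7 and E2F8 (the other panel), by library; points are libraries, bars are group means. At 500 nM all libraries lie above those with DMSO against E2F4 and E2F5, and below them against E2F7 and E2F8.

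The change with JIB-04 differed between the lines for 3 members at 150 nM, where 23.3% of all genes did (edgeR), and for 8 members at 500 nM. At 500 nM 5 of these (E2F1, E2F4, E2F8, RB1 and RBL1) were higher in OCI-Ly1 relative to TMD8, as were 28.2% of all genes, and 3 (E2F5, E2F7 and RBL2) were lower, as were 18.1% of all genes. RB1 differed most among the pocket proteins (0.58 ± 0.11 SE, edgeR adjusted p = 1.12e-04), since it rose in OCI-Ly1 and fell in TMD8. Over all genes called at 500 nM, 60.9% were higher in OCI-Ly1 relative to TMD8 with TMM scaling, 57.2% with library size only, 89.1% on log2 TPM and 43.4% on median-centred log2 TPM, and at 150 nM 64.2%, 47.0%, 85.2% and 68.9%. On the TPM scale, where the median of all genes at 500 nM was 0.38, E2F7 stood at 0.16 and RBL2 at 0.06, so their direction rests on the scaling. The call for E2F7 was lost without the second TMD8 DMSO library (edgeR adjusted p = 0.0707), and that for E2F8 without OCI-Ly1 DMSO library 2, OCI-Ly1 500 nM library 3, TMD8 DMSO library 1 or TMD8 500 nM libraries 2 or 3 (edgeR adjusted p up to 0.0820). E2F2 and E2F3 were the members without a called difference, with 95% limits of −0.21 to 0.15 and −0.21 to 0.09.

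The partners of the family were called in OCI-Ly1 in shares near those of all genes given above. Of 11 genes for DP partners and MuvB or MYB proteins, 3 rose and 3 fell in OCI-Ly1 at 500 nM (median log2 change 0.01, against −0.0033 over all genes) and 3 rose and 6 fell in TMD8 (median −0.26, against 0.04). On log2 TPM 4 rose and 0 fell in OCI-Ly1, and 0 rose and 8 fell in TMD8. TFDP1, which codes for the DP partner E2F proteins need to bind DNA, fell in both lines (−0.23 in OCI-Ly1, edgeR adjusted p = 2.71e-04, and −0.79 in TMD8, edgeR adjusted p = 7.47e-09). TFDP2, for the other DP partner, fell in OCI-Ly1 (−0.27) and rose in TMD8 (0.42), and so did MYBL1 (−0.49 and 0.48). LIN37, a MuvB subunit needed for repression, rose in both (0.86 and 0.47).

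Among the kinases that act on pocket proteins and their inhibitors, 14 of 17 listed genes were tested in each line. At 500 nM 6 rose and 4 fell in OCI-Ly1 and 4 rose and 6 fell in TMD8 (medians 0.11 and −0.12, against −0.0033 and 0.04 over all genes). On log2 TPM 8 rose and 4 fell in OCI-Ly1, and 3 rose and 10 fell in TMD8. CDKN1A, coding for the CDK inhibitor p21, rose most. OCI-Ly1 had 16.4 ± 0.8 CPM with DMSO and 136 ± 2.3 CPM at 500 nM, a log2 change of 3.05 (edgeR adjusted p = 5.34e-16). TMD8 had 81.4 ± 4.6 and 222 ± 5.4 CPM, a log2 change of 1.48 (edgeR adjusted p = 2.40e-12). CCNE2, a cyclin E gene and E2F target, also rose in both (0.52 and 1.004). CCNA2, for cyclin A, fell (−0.50 and −1.30), as did SKP2, whose product targets the CDK inhibitor p27 for destruction (−0.43 and −0.33). CDK6 rose in OCI-Ly1 and fell in TMD8 (0.32 and −0.35), while CDKN2C, for the CDK4/6 inhibitor p18, fell in OCI-Ly1 and rose in TMD8 (−0.40 and 0.29), but stood at −0.06 in TMD8 on the TPM scale.

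The G1/S target genes of the family mostly fell in TMD8, while in OCI-Ly1 they were called in shares near those of all genes. In OCI-Ly1 at 500 nM 12 of 39 rose (30.8%) and 10 fell (25.6%, median 0.07), with 27.7% of all genes higher and 25.9% lower. In TMD8 at 150 nM 0 rose and 32 fell (82.1%, median −0.33), with 19.2% of all genes higher and 25% lower. At 500 nM 3 rose (7.69%) and 28 fell (71.8%, median −0.31), with 29.9% and 30.7% of all genes. The OCI-Ly1 counts rest on the scaling. With library size alone 21 rose and 4 fell, and on median-centred log2 TPM 5 rose and 13 fell. Without the second DMSO library 13 genes were called, without the second 500 nM library 13 and without the third 500 nM library 14. In TMD8 the same alternatives gave 5 and 22, and 0 and 30. Of the 39 genes, 9 fell in both lines and 7 rose in OCI-Ly1 and fell in TMD8. RRM1, a ribonucleotide reductase subunit, fell by like amounts (−0.39 in both), GINS1, of the replicative helicase, by −0.38 and −0.74, and TIPIN, a fork protection protein, by −0.29 and −0.84. MCM10, a replication initiation factor, rose in OCI-Ly1 and fell in TMD8 (0.28 and −0.58), as did GINS2 (0.18 and −0.57). Beside the TMD8 median of −0.31 for these targets, RBL1 stood at −0.51, while E2F1, E2F2 and E2F3, which carry E2F letters in their promoters as RBL1 does, stood at 0.04, 0.13 and 0.03 and were not called. On log2 TPM RBL1 stood at −0.81 and these 3 at −0.31, −0.20 and −0.34, of which E2F1 and E2F3 were called.

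Late cell-cycle genes, of which those with the CHR letters were counted above, fell in both lines. Of 31, 29 fell in OCI-Ly1 at 500 nM (median −0.58) and all 31 in TMD8 at 150 nM (median −0.66) and at 500 nM (median −1.34); in OCI-Ly1 at 150 nM none was called with the settings used throughout, 1 by DESeq2 or with a replicate block, and 2 with no low-count filter, without DMSO library 3 or without 150 nM library 1. Over the other settings 26 to 31 fell at 500 nM in OCI-Ly1 and 31 in TMD8. PLK1, the mitotic kinase, had 98.6 ± 6.5 CPM with DMSO and 35.6 ± 1.8 CPM at 500 nM in OCI-Ly1 (log2 change −1.46), and 202 ± 16.3 and 25.7 ± 1.1 CPM in TMD8 (log2 change −2.93). CCNB1, for cyclin B, changed by −1.27 and −2.45, and CCNF, for cyclin F, by −1.33 and −1.38. The change of the 31 genes differed between lines for 30 of them at 500 nM, each time with the lower value in TMD8.

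Of 9 apoptosis genes known as E2F1 targets, 6 rose and 1 fell in OCI-Ly1 at 500 nM (median 0.42, against −0.0033 over all genes). In TMD8 6 rose and 2 fell (median 0.59, against 0.04). Of all genes, 27.7% rose and 25.9% fell in OCI-Ly1, and 29.9% rose and 30.7% fell in TMD8. On log2(TPM + 1) 7 of the 9 rose and 0 fell in OCI-Ly1, and 4 rose and 1 fell in TMD8. BBC3, which codes for PUMA, rose in both (2.57 and 2.21), as did PMAIP1, for NOXA (0.93 and 1.72), and HRK (0.90 and 3.19). These BH3-only genes are also known targets of other factors. APAF1 fell in OCI-Ly1 and rose in TMD8 (−0.30 and 0.59).

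**Figure D5:**
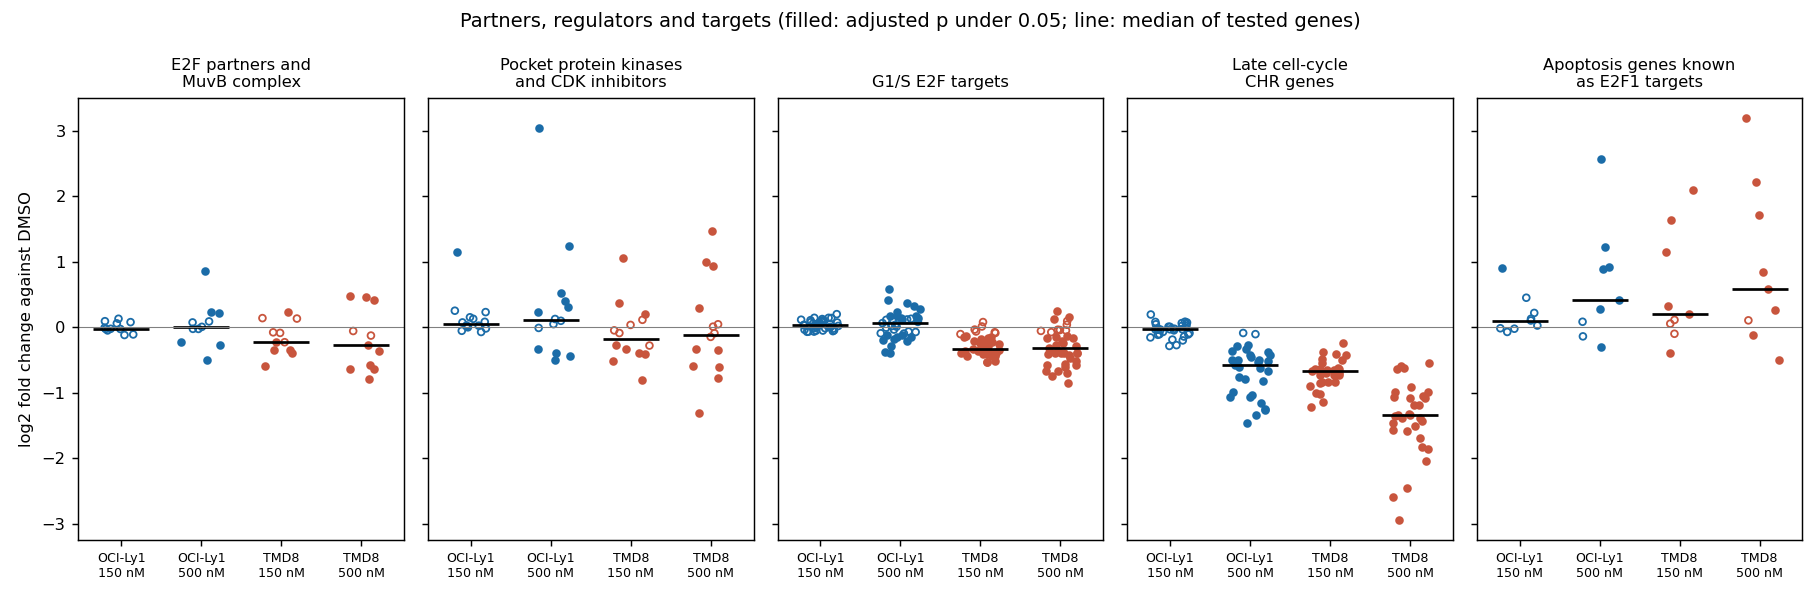
Log2 fold change against DMSO of each gene in the 5 lists, by line and dose; each point is a gene, filled where its adjusted p is under 0.05, and the line is the list's median. The late cell-cycle genes reach medians of −0.58 in OCI-Ly1 and −1.34 in TMD8 at 500 nM.

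Likeness of pattern was measured as the Euclidean distance over the 4 log2 fold changes against DMSO (2 doses in 2 lines), across 14483 genes tested in both lines; smaller is more alike. Among the members themselves, E2F4 and RBL1 were the nearest pair (0.116), ahead of E2F1 and E2F2 (0.245), and E2F7 was the farthest from any other member (0.942 from E2F1). Over all genes, those nearest to E2F4 were DHRS4 (0.025) and LARP4B (0.041), to RBL1 C7orf73 (0.021) and MAP7D3 (0.023), and to RBL2 OAS2 (0.022) and CAPN10 (0.033). The nearest to E2F1 were SPTAN1 (0.036) and ZSCAN26 (0.038), to E2F2 ZNF615 (0.054) and TRAF3IP2 (0.058), and to E2F3 EVI5 (0.019) and DBT (0.026). E2F8 lay nearest to FLI1 (0.029) and DLG1 (0.032), E2F5 to SNORA22 (0.078) and ASB4 (0.081), RB1 to THOC6 (0.066) and CDS2 (0.082), and E2F7 to H1FX (0.061) and SPSB3 (0.095).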

How the data were processed

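RNA was measured in 18 libraries of OCI-Ly1 and TMD8, 3 in each of 6 groups. The submitters' processing notes name kallisto 0.46.0, R 4.3.1, DESeq2 1.40.2 and the build hg19, with no role or order. The authors deposited estimated counts and TPM values per gene and line. The estimated counts were rounded to whole numbers and tested with edgeR 4.0.16 (R 4.3.3) by the quasi-likelihood test, with TMM scaling, filterByExpr by group and Benjamini-Hochberg adjustment over all genes of a contrast. The 9 libraries of a line shared 1 fit, and differences between lines came from 1 fit of all 18. A standard error is the log2 fold change divided by the root of F. Within groups, 18 library pairs differed by 1.65 to 11.6 chi-square per degree of freedom, so all counted as separate libraries. Libraries of a group varied by 6.84% (OCI-Ly1) and 5.30% (TMD8), as edgeR's common coefficient of variation. The fits were tested on simulated data. Alternatives were DESeq2 1.42.0, limma 3.58.1 on log2(TPM + 1) or log2(TPM + 0.1), median centring, library size alone, no filter, only the groups compared, a replicate block and leaving out each library.

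The members and the 5 gene lists were chosen with earlier results of these data known. Beside the 10 members, the text names from each list at most 3 genes called in each direction in both lines at 500 nM, by the smaller change, the 2 called in opposite directions with the largest difference, and the 2 genes nearest to each member. One gene that this rule names is not reported here. Strand of counting was not given in the sources used here, so overlapping and antisense genes are uncertain, and so are short RNAs such as MIR3687 and SNORA22.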

Additional observations from a re-analysis of the deposited data

Results flagged for a closer look

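Several members changed with JIB-04 by a different amount in the 2 lines, tested as the OCI-Ly1 change less the TMD8 change in 1 edgeR fit of all 18 libraries (log2 scale). At 150 nM these were the repressor E2F4 (0.315), the atypical repressor E2F8 (0.270) and RBL1, coding for p107 (0.314). In each of the 3 the TMD8 value fell and the OCI-Ly1 value was not called. The E2F8 call was lost without TMD8 DMSO library 1 (edgeR adjusted p = 0.0690) or TMD8 150 nM library 3 (edgeR adjusted p = 0.0716). Over the 19 alternatives, the E2F4 call was lost in 1, the E2F8 call in 3 and the RBL1 call in 0.

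At 500 nM the activator E2F1 differed by 0.275, E2F4 by 0.496, E2F8 by 0.232, RB1 by 0.583 and RBL1 by 0.384, each higher in OCI-Ly1 relative to TMD8. E2F5 differed by −0.592, E2F7 by −0.339 and RBL2 by −0.421, each lower in OCI-Ly1 relative to TMD8. RB1 and RBL2 were called in opposite directions in the 2 lines. E2F5 started 5.76-fold higher in OCI-Ly1 and RB1 22.0-fold higher in TMD8, so the lines also differed in the level from which each gene moved. Line, medium and starting level cannot be told apart here.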

How the results depend on the processing

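The main limits are the scaling and the small size of the changes: RB1 in OCI-Ly1 rests on 310 to 523 counts a DMSO library, and several calls rest on single libraries, as given beside them. Leaving out 1 library at a time, members called numbered 0 at 150 nM and 4 to 6 at 500 nM in OCI-Ly1, 4 to 7 at 150 nM and 5 at 500 nM in TMD8, 5 and 3 to 5 between the doses, 2 to 3 and 7 to 8 for the line difference at 150 nM and 500 nM, and 6 to 7 between the lines with DMSO. The change in the activator minus canonical repressor measure ran from −0.046 to 0.023 and from 0.381 to 0.448 in OCI-Ly1 at 150 nM and 500 nM, and from 0.250 to 0.314 and from 0.271 to 0.335 in TMD8. With E2F7 and E2F8 as the repressors OCI-Ly1 moved by −0.100 at 150 nM and −0.253 at 500 nM, TMD8 by 0.0409 and −0.368. With all 4 repressors it was 0.0808 in OCI-Ly1 at 500 nM, and 0.166 and −0.0286 in TMD8.

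Same-numbered libraries correlated at −0.046 to 0.146 in OCI-Ly1 and −0.055 to 0.141 in TMD8 in their deviations from the group means. In each line 2 of 9 such pairs lay over 0.1. Of differently numbered pairs, 0 of 18 did in OCI-Ly1 and 1 of 18 in TMD8. Whether same-numbered libraries belong together is therefore not settled, and the main fits used no pairing. With a replicate block, members called were 0, 7 and 6 in the 3 OCI-Ly1 comparisons and 6, 5 and 4 in the TMD8 ones. They were 3 and 8 for the line differences and 7 with DMSO. E2F8 was gained in OCI-Ly1 at 500 nM (0.146, edgeR adjusted p = 0.0410). Over all genes the block gave 4463 higher and 4152 lower of 15638 in OCI-Ly1 at 500 nM. In TMD8 at 500 nM it gave 4659 and 4731 of 15363.

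In OCI-Ly1 at 150 nM the genes called were 117 higher and 22 lower in edgeR, 159 and 48 with the replicate block, 220 and 103 with no filter, 190 and 50 in DESeq2, 60 and 1 on log2(TPM + 1), and 71 and 10 with only the groups compared. Between the doses 54.3% of the genes called were higher in OCI-Ly1 (67.9% with library size only, 72.7% on log2 TPM, 31.8% centred) and 47.9% in TMD8 (10.4% on log2 TPM). Library size alone called 1 member for the line difference at 150 nM, with 1715 genes higher and 1937 lower of 16604 tested.

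The other reversals were on log2(TPM + 1) and log2(TPM + 0.1), given in that order; beyond the all-gene shifts given above, the cause was not tested. In TMD8 at 500 nM 8 members were called with either pseudocount, 1 higher and 7 lower. Of 15363 genes tested, 1751 were higher and 7581 lower with the first pseudocount, and 1764 and 7576 with the second. There E2F1 stood at −0.309 and −0.328, E2F3 at −0.341 and −0.373, E2F5 at −0.313 and −0.341, RBL2 at −0.112 and −0.118, and CDKN2C at −0.0572 and −0.0624. Between the TMD8 doses RBL2 stood at −0.0325 and −0.0345 and TFDP2 at −0.0384 and −0.0457, and RBL1 in OCI-Ly1 at 500 nM at 0.00113 and 0.00122. For the line difference at 500 nM E2F2 stood at 0.405 and 0.450, E2F3 at 0.373 and 0.408, E2F7 at 0.162 and 0.142, RBL2 at 0.0585 and 0.0630, CCNE2 at 0.106 and 0.0352, and SKP2 at 0.316 and 0.356. Between the lines with DMSO E2F3 stood at 0.0820 and 0.0892, E2F4 at 0.869 and 0.886 (0.145 when centred on each library's median), E2F7 at 0.690 and 0.788, E2F8 at 0.599 and 0.636, RBL2 at 0.867 and 0.905 (0.143 when centred), TFDP1 at 0.9003 and 0.907 (0.176 when centred), MCM10 at 0.452 and 0.471, and CCNF at 0.875 and 0.905.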

Other observations

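Of the members whose E2F letters could be read, 4 had matches (RBL1, E2F1, E2F2 and E2F3). In TMD8 at 500 nM RBL1 fell (log2 change −0.51) while E2F1, E2F2 and E2F3 stood at 0.04, 0.13 and 0.03, not called. On log2 TPM all 4 were below 0, at −0.81, −0.31, −0.20 and −0.34. E2F4 and E2F7, whose windows held no match, moved by −0.51 and 0.93. E2F7 is the member with 4 CCAAT matches in its window, as is E2F3 at its first start, and 32.0% of all windows held at least 1. The E2F3 window also held the CHR letters TTTGAA, 65 bases before the start.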
